A study of Mus musculus with 7 samples.

Results

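Long noncoding RNA genes known from neural cells were followed in primary mouse oligodendroglia that lacked the transcription factor KLF13. The members are 8 listed genes, Neat1, Malat1, Miat, Sox2ot, Gas5, Snhg11, Pvt1 and Rmst, taken by their gene names. Of the 49315 genes counted, 7 were these members, and all 7 passed the filter on low counts. The gene-level count of the eighth, Rmst, was not analysed here.

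The study cultured oligodendrocyte precursors from newborn mouse brain and kept them under differentiating conditions for 6 days. The precursors were shaken off from mixed glia, and microglia were then depleted. There were 4 libraries from wildtype controls (Klf13-wt) and 3 from Klf13 knockouts (Klf13-ko), each labelled as a biological replicate. In these animals KLF13 is deleted in all tissues from the start, so the cells never had it, and other cells that survive the purification lack it as well. A library held 24507471 to 59596479 counts. Klf13 itself stood at 10669.9 to 11999.5 normalised counts in controls and at 802 to 961 in knockouts, so each library matched its label. Normalised counts are read counts scaled to a common library size.

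The labelled cell type was checked against its markers. All 10 oligodendrocyte markers were present. Together they took 23666 to 27986 CPM (counts scaled to library size) in controls and 6767 to 7641 in knockouts. The 10 markers of oligodendrocyte precursors took 5239 to 5467 CPM in controls and 5878 to 6134 in knockouts, without overlap. Of these precursor markers 0 were called lower and 2 higher. The 18 neuron markers took 980.3 to 1468 CPM in controls and 1964 to 2513 in knockouts, and the 12 astrocyte markers 3723 to 4215 and 5579 to 6344. Of 17 tested neuron markers, 14 had a positive log2 fold change and 3 a negative one. Elavl3, the highest in controls after Map2, had mean normalised counts of 18674 in controls and 13585 in knockouts (log2 fold change -0.46). Of the astrocyte markers, 10 were positive and 2 negative, with S100b at 35010 and 24132 (-0.54). Of the neuron markers, Slc17a7 was at 0 in at least 1 library. Microglia markers took 2383 CPM in control replicate 3 and 516 to 605 in the other 3 controls, against 512 to 1079 in knockouts. Control replicate 3 therefore stands apart, and Neat1, which was highest in it, is given with and without it. Markers of fibroblasts and mural cells took 1752 and 1404 CPM in control replicates 3 and 4 and 409 to 528 in the other controls, against 183 to 426 in knockouts. In bulk RNA, fewer cells of a type and less RNA per cell cannot be told apart.

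Long noncoding RNAs act in different places in the cell. Neat1 is the RNA scaffold of paraspeckles, nuclear bodies that hold RNA-binding proteins, and Malat1 sits in nuclear speckles, where splicing factors are stored. Miat is a nuclear RNA of neurons and their precursors with repeats that bind splicing factors. Sox2ot spans the gene of the stem cell factor Sox2, and Pvt1 lies downstream of the oncogene Myc. Gas5 and Snhg11 are host genes, whose introns carry small nucleolar RNAs (snoRNAs) that guide the modification of ribosomal and other RNAs. Rmst is known as a partner of SOX2 in neurogenesis. On GRCm38 the genes lie at chr19:5824708-5845478 (Neat1, minus strand), chr19:5795690-5802672 (Malat1, minus), chr5:112213228-112229395 (Miat, minus), chr3:34104270-34682619 (Sox2ot, plus), chr1:161034422-161038539 (Gas5, plus), chr2:158375638-158386145 (Snhg11, plus) and chr15:62037986-62378096 (Pvt1, plus). GENCODE M21 lists Snhg11 as protein coding.

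The sequences that set Neat1 and Malat1 apart from usual transcripts are at their 3′ ends. Both are known to end without a poly(A) tail, at a genome-encoded stretch in which U-rich runs fold around an A-rich run into a triple helix. Capitals mark the runs of 16 and 11 letters that the pair shares, the first of which holds a U-rich run and the second the end of the A-rich run. The sequences are DNA letters of the transcripts in GENCODE M21 (GRCm38), minus strand, from chr19:5824708-5824780 for Neat1 and chr19:5795982-5796047 for Malat1.
Neat1: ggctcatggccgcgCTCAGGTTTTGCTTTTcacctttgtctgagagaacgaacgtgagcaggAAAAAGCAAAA
Malat1: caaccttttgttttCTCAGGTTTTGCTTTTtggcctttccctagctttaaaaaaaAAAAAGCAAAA
The Neat1 stretch is the very end of the long isoform of 20771 bases, and the one of Malat1 lies before the annotated end of its 6983 bases. Neat1 also has a short isoform of 3004 bases that carries a poly(A) tail. The counts are per gene and do not separate the isoforms. Whether poly(A) RNA was selected for these libraries is not stated, although GEO's design text calls the profiles mRNA.

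Miat carries the motif ACTAAC (with U for T in the RNA), which splicing factor SF1 and the Quaking protein QK are known to bind. The longest annotated transcript of 9163 bases held 11 copies on its own strand. Of 1142 mouse transcripts of 8 to 11 kb, 66.4% held at least 1 copy, the median was 1 copy and 3 transcripts (0.263%) had 11 copies or more, of which 2 were Miat isoforms and 1 belonged to another gene, Fam186a. The long Neat1 isoform had 4 copies in 20771 bases, and Malat1 had 0. Both stretches of Miat that are dense in the motif lie in exon 7 of 7, on the minus strand of GRCm38 at chr5:112217309-112217459 and chr5:112216752-112216877, with the motif in capitals.
Miat stretch 1: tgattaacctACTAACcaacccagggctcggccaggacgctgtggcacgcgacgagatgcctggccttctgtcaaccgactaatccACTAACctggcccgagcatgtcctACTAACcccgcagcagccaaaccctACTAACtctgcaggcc
Miat stretch 2: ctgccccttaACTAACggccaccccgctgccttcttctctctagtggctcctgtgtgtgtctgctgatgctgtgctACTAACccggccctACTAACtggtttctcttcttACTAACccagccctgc

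Of the 7 members, 3 were lower in the knockout (Neat1, Sox2ot and Pvt1), 1 was higher (Gas5) and 3 did not pass the test (Malat1, Miat and Snhg11). Without knockout replicate 2 only 1 member, Sox2ot, was lower, and Gas5 kept its call under 5 of 17 alternatives. Over all 18352 genes tested, 12.2% fell and 11.6% rose past the threshold of 0.05 on adjusted p by the edgeR quasi-likelihood test (p adjusted by Benjamini and Hochberg), which is the test used throughout. The median log2 fold change of the 7 members was -0.29, beside -0.0037 over all tested genes. The study's stricter rule adds a 2-fold change in either direction as a condition. By this rule 1 of 7 members (Neat1) passed in DESeq2, the test that the study used. In limma and in edgeR 0 of 7 passed, beside 3.08% lower and 3.97% higher of all genes in edgeR. The libraries of both groups did not overlap for 5 of 7 members, beside 36.2% of all genes. The 2728 tested genes that GENCODE annotates as long noncoding had 131 lower and 147 higher.

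**Figure D1:**
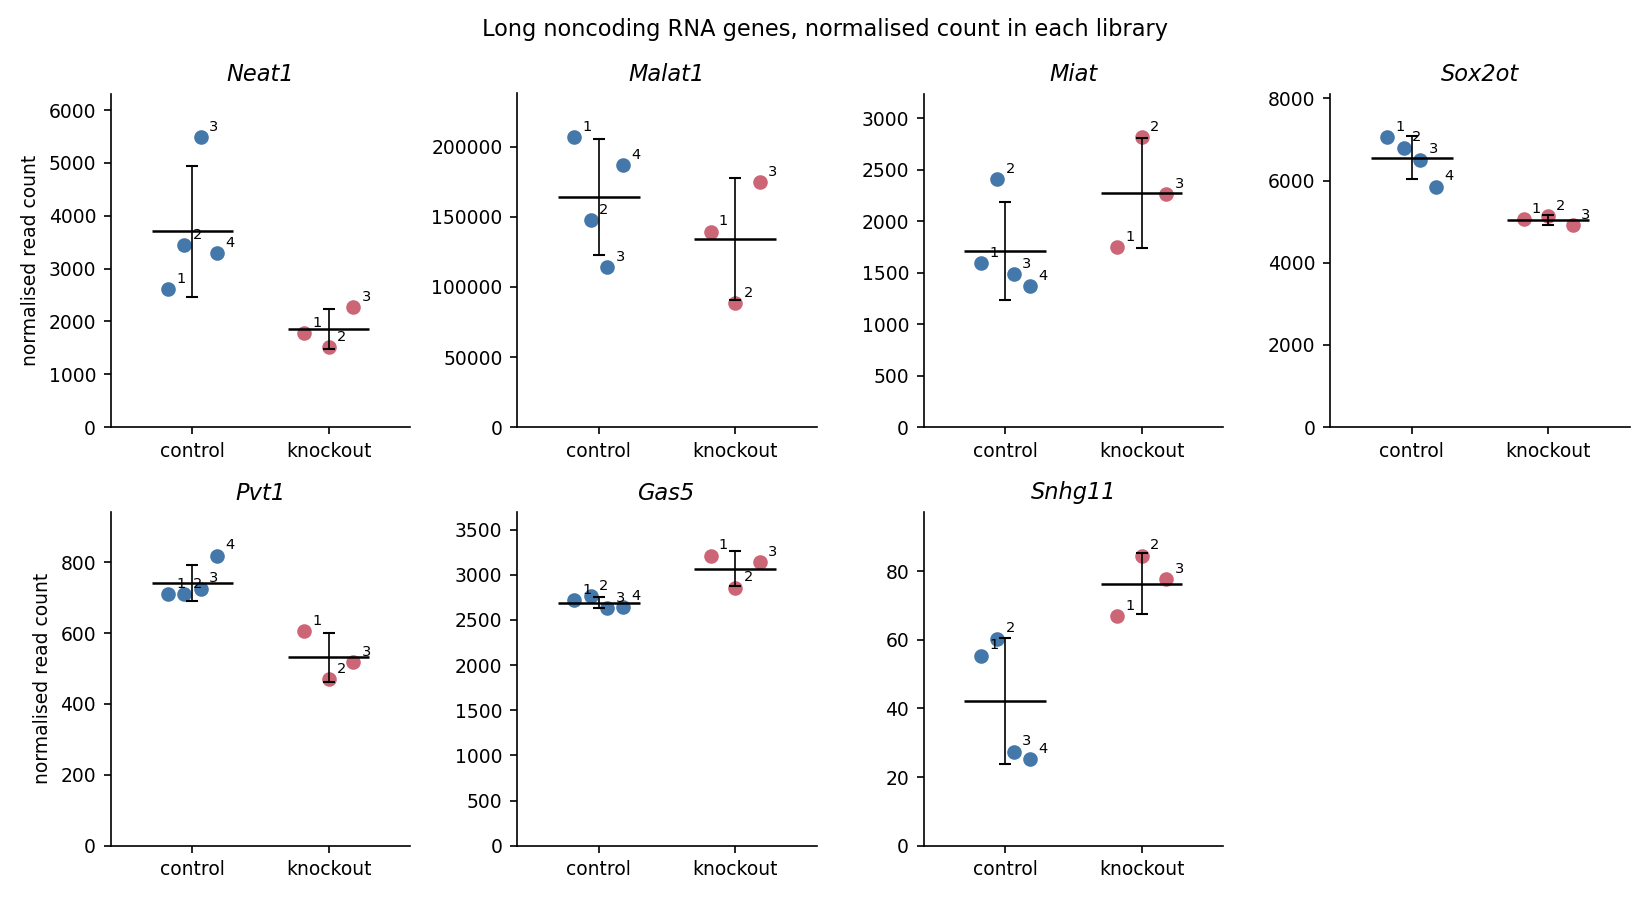
Normalised read count of each of the 7 genes (vertical axes, from 0) in the control and knockout libraries; points are libraries with their replicate number, lines the mean and bars the SD (n = 4 and 3). The knockout points of Neat1, Sox2ot and Pvt1 lie below all control points, those of Gas5 and Snhg11 above them, and those of Malat1 and Miat overlap.

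Neat1 was the member with the largest fall. Its normalised counts were 2611, 3442, 5491 and 3299.5 in controls (replicates 1 to 4, in this order throughout), against 1777, 1518 and 2273 in knockouts (replicates 1 to 3). All knockout libraries were below all controls, and control replicate 3 was the highest. The mean of 3711 ± 1241 (SD, n = 4) became 1856 ± 384 (SD, n = 3), and without control replicate 3 the control mean was 3118 ± 444 (SD, n = 3). The log2 fold change was -0.9996 (SE 0.263, edgeR adjusted p = 0.0323). Control replicate 3 also had the highest microglia markers (2383 CPM) and the highest fibroblast and mural cell markers (1752 CPM). Without it the log2 fold change was -0.75 with an edgeR adjusted p of 0.0247. Among the knockouts, replicate 3 was highest in Neat1, in microglia markers (1079 CPM) and in fibroblast and mural cell markers (426 CPM). The part of these cell types in the Neat1 level was not tested. Without control replicate 2, control replicate 4, knockout replicate 1 or knockout replicate 2 the edgeR adjusted p was 0.0511 to 0.116, at log2 fold changes of -1.03 to -0.87. With no filter on low counts it was 0.0962 at -1.0015. The call held under 11 of 17 alternatives.

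The 13 paraspeckle proteins tested, the partners of Neat1, had 0 lower and 0 higher, with a median log2 fold change of 0.09. At an unadjusted p under 0.05 in edgeR 0 were lower and 2 higher, and DESeq2 and limma also called 0. Nono, one of the core proteins that coat Neat1, had means of 13354 in controls and 14491 in knockouts (log2 fold change 0.12, edgeR adjusted p = 0.259). Hnrnpk, which is needed to make the long isoform, had 29345 and 30371 (0.05, edgeR adjusted p = 0.514).

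Malat1 was by far the most abundant member. Its normalised counts were 206880, 147671, 114136 and 186940 in controls and 139351, 88427 and 174676 in knockouts. The groups overlapped, and the spread within each group was wide. The log2 fold change was -0.29 (95% confidence interval -0.93 to 0.35, edgeR adjusted p = 0.503). Without 1 library it ranged from -0.52 (without knockout replicate 3) to -0.061 (without knockout replicate 2), with edgeR adjusted p values of 0.274 to 0.891. Malat1 moved with the share of counts on 3 genes that collect ribosomal RNA reads, Gm42418, Gm23935 and Lars2. That share was 14.1% in control replicate 1, 15.04% in control replicate 4, 17.02% in knockout replicate 1 and 17.95% in knockout replicate 3, where Malat1 was high within its group. It was 6.03%, 6.496% and 7.56% in control replicates 2 and 3 and knockout replicate 2, where Malat1 was low within its group. Among the libraries above 10%, the knockout mean was 157014 and the control mean 196910 (log2 ratio -0.33), and among those below it 88427 and 130904 (log2 ratio -0.57). With the share as a covariate, the log2 fold change of Malat1 was -0.60 and the edgeR adjusted p 0.0203. The class below 10% has only 1 knockout library. What the share stands for was not tested. Of the exon bases of Malat1, 12.6% are shared with annotated genes on the other strand.

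For Neat1 the knockout was below the control in both classes as well, with means of 2025 and 2955 above 10% (log2 ratio -0.55) and 1518 and 4467 below it (log2 ratio -1.56, or -1.18 without control replicate 3). With the share as a covariate the log2 fold change of Neat1 was -0.93 and the edgeR adjusted p 0.0975, so this setting ended its call. Neat1 and Malat1 are neighbours on chromosome 19, 22.0 kb apart and on the same strand. As a description, their log2 CPM had a Pearson correlation of 0.184 over the 7 libraries, which share genotype groups and ribosomal RNA share.

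**Figure D2:**
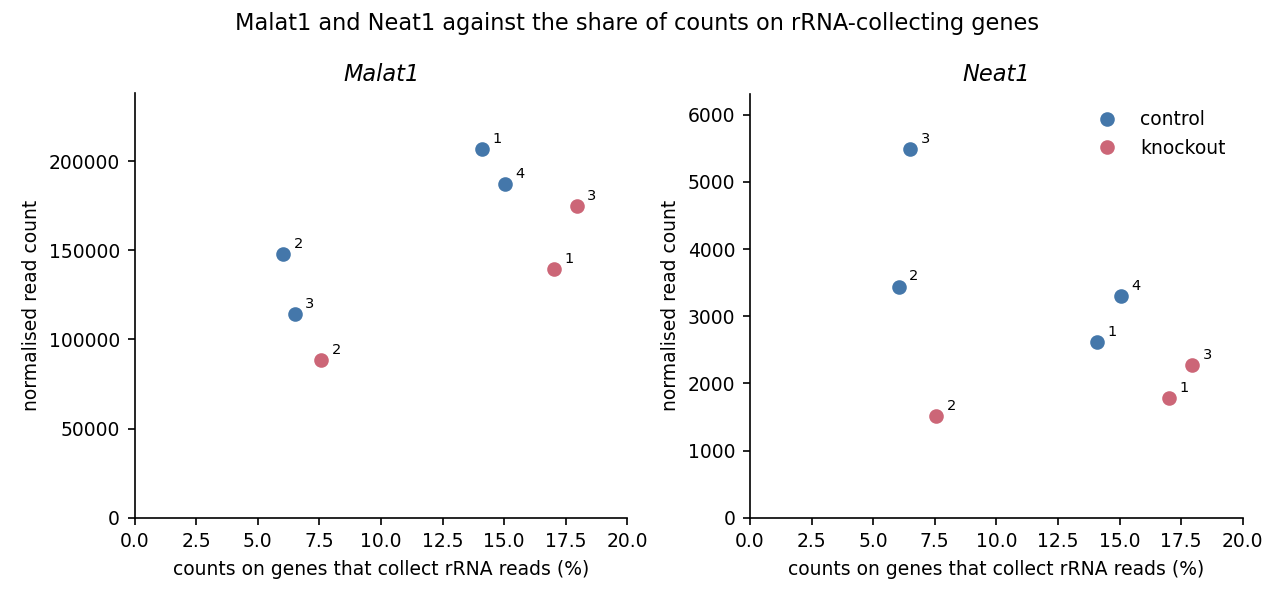
Normalised read counts of Malat1 and Neat1 (vertical axes, from 0) against the percentage of counts on genes that collect ribosomal RNA reads (horizontal axes), one point per library with its replicate number. Within each genotype Malat1 is higher in the libraries with a share above 10%, and both above and below 10% each knockout lies below each control, and Neat1 is lowest in the 3 knockout libraries.

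Nuclear speckle proteins, the neighbours of Malat1 in the nucleus, had 1 of 13 tested genes lower (7.69%) and 2 higher (15.4%). All tested genes had 12.2% and 11.6%. The median log2 fold change of the 13 was -0.01. Srsf3 rose from 8513 to 11140.2 (log2 fold change 0.39, edgeR adjusted p = 0.00182) and Srsf7 from 3585 to 4536 (0.34, edgeR adjusted p = 0.00391). Srsf6 fell from 8751 to 7509 (-0.22, edgeR adjusted p = 0.0185), a call that was lost without any 1 of the knockout libraries (edgeR adjusted p 0.0500016 to 0.0719), with upper quartile factors (0.0533) and with total counts only (0.129). All 3 encode serine and arginine rich splicing factors. Srsf6 and Srsf7 were picked for mention after their values were seen.

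Miat had normalised counts of 1591, 2412, 1486 and 1368 in controls and 1749, 2818 and 2262 in knockouts. Control replicate 2 lay within the range of the knockouts, so the groups overlapped. The log2 fold change was 0.41 (95% confidence interval -0.13 to 0.95, edgeR adjusted p = 0.247). Without control replicate 2 it was 0.62 with an edgeR adjusted p of 0.0465. Over all fits without 1 library it ranged from 0.23 to 0.62, with edgeR adjusted p values of 0.0465 to 0.580. On its exons, 24.3% of the bases are shared with an annotated gene on the other strand, and since the strand setting of the counting is not stated, reads of both could not be separated. That gene, Gm26953, had means of 7.53 in controls and 10.2 in knockouts.

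Of the transcripts of 4 splicing factors listed as binders of Miat, 1 was lower and 1 higher. Qk, which encodes an RNA-binding protein needed for myelination and a binder of the ACTAAC repeats shown above, fell from 99125 ± 2882 (SD, n = 4) to 71506 ± 3619 (SD, n = 3), and its log2 fold change was -0.47 (edgeR adjusted p = 0.00323). Celf3, a splicing factor of neurons, rose from 448 ± 200.04 to 1797 ± 360.3 (2.01, edgeR adjusted p = 0.00837). The groups did not overlap for either gene. Oligodendrocyte markers, 9 of 10 of them lower, fell in the libraries in which Qk was lower. Neuron markers, 12 of 17 of them higher, rose in those in which Celf3 was higher. Within the controls, Celf3 had 575 and 653 in replicates 1 and 2, where the summed neuron markers were 1278 and 1468 CPM, and 342 and 223 in replicates 3 and 4, where they were 1119 and 980.3. The part of these cell types in both values was not tested. Sf1 had 7919 and 7636 (-0.05, edgeR adjusted p = 0.683), and Srsf1 11615 and 10802 (-0.10, edgeR adjusted p = 0.499).

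Sox2ot gave the firmest result of the members. Its normalised counts were 7060, 6802, 6512 and 5850.2 in controls and 5059, 5144 and 4920.0 in knockouts. Every knockout library was below every control. The means were 6556 ± 521 (SD, n = 4) and 5041 ± 113 (SD, n = 3), a log2 fold change of -0.38 (SE 0.0716, edgeR adjusted p = 0.00997). The call held under all 17 alternatives, 7 of which left out 1 library each. The log2 ratio was -0.37 both among libraries above and among those below 10% of counts on ribosomal RNA collecting genes.

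Sox2, which lies inside Sox2ot on the same strand, had 11218, 17770.1, 16884 and 12351 in controls and 11791, 17784 and 9812 in knockouts. The groups overlapped (log2 fold change -0.15, edgeR adjusted p = 0.707). The value turned to 0.096 when the ribosomal RNA share was a covariate and to 0.034 without knockout replicate 3. Of the other genes within the span, Gm42692 fell from 550.2 to 313 (-0.82, edgeR adjusted p = 0.0122) and Gm20515 from 261 to 149 (-0.80, edgeR adjusted p = 0.0244). Gm42692 has the strand of Sox2ot and Gm20515 the opposite one. Of the exon bases of Sox2ot, 5.11% are shared with other annotated genes, 0 of them on the other strand. In the fit blocked by replicate number the edgeR adjusted p of Gm20515 was 0.0782, and it was 0.0619 to 0.0952 without control replicate 1 or 4 or knockout replicate 1 or 2. Fxr1, a neighbour 33.9 kb upstream that encodes an RNA-binding protein, fell from 6462 to 5645 (-0.20, edgeR adjusted p = 0.0476). That call was lost when any 1 library was left out (edgeR adjusted p 0.0624 to 0.154) and with the block (0.0989), upper quartile factors (0.180), total counts only (0.0913), no filter on low counts (0.0915) and a minimum of 10 counts in every library (0.0523).

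SOX2 and the neurogenic factors linked to it through Rmst or Sox2ot had 0 of 7 lower and 3 higher (42.9%). Of all tested genes 11.6% were higher. Dlx1 rose from a mean of 1142 to 5706 (log2 fold change 2.32, edgeR adjusted p = 0.0218), Dlx2 from 568 to 1672 (1.56, edgeR adjusted p = 0.0244) and Sp8 from 485 to 2249.8 (2.22, edgeR adjusted p = 0.0252). All 3 are transcription factors of inhibitory interneurons and their precursors. For each of them no knockout library overlapped a control. Without knockout replicate 1 or knockout replicate 2 the calls were lost, at edgeR adjusted p values of 0.0514 to 0.0791 for Dlx1, 0.0524 to 0.0914 for Dlx2 and 0.0559 to 0.0915 for Sp8. With no filter on low counts they were lost as well (edgeR adjusted p = 0.104 for Dlx1, 0.1003 for Dlx2 and 0.115 for Sp8). The summed neuron markers were higher in these knockout libraries too, and their part in these values was not tested.

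The Rmst gene spans chr10:92071037-92165170 on the minus strand in GENCODE M21. Inside it lie 13 short genes that were counted, of 60 to 1957 bases. Summed over them, the controls held 4, 6, 2 and 17 raw counts and the knockouts 14, 57 and 49. None passed the filter, so no test was made, and these counts do not stand for Rmst.

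Pvt1 fell in the knockout, with normalised counts of 710.2, 711, 726 and 819 in controls and 607, 471 and 518 in knockouts. All knockouts were below all controls, and control replicate 4 was the highest. The means were 741 ± 52.2 (SD, n = 4) and 532 ± 68.9 (SD, n = 3), a log2 fold change of -0.48 (SE 0.110, edgeR adjusted p = 0.0190). Without knockout replicate 2 the edgeR adjusted p was 0.0675 at a log2 fold change of -0.40, and without knockout replicate 3 it was 0.0700 at -0.46.

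Myc lies 47.6 kb upstream of Pvt1 on the same strand and moved the other way, with normalised counts of 3051, 2958, 2277 and 2504 in controls and 4490.1, 4125 and 3903 in knockouts. The groups did not overlap, and the log2 fold change was 0.63 (SE 0.111, edgeR adjusted p = 0.00814). This call held under all 17 alternatives. The 8 Myc family genes had 1 lower (12.5%) and 2 higher (25%), beside 12.2% and 11.6% of all tested genes. Mycn, the relative of Myc in neural precursors, rose from 246 to 380.2 (0.63, edgeR adjusted p = 0.0486), a call that was lost without control replicate 1, 3 or 4 or knockout replicate 1 or 2 (edgeR adjusted p 0.0769 to 0.168), and with DESeq2 size factors, total counts only, the ribosomal RNA collecting genes left out or no filter on low counts (0.0513 to 0.0713). Mxd3, which pairs with MAX and opposes MYC, fell from 313 to 161 (-0.98, edgeR adjusted p = 0.0138), and without knockout replicate 2 its edgeR adjusted p was 0.0594. Max, the shared partner, had 3365 and 3482 (0.05, edgeR adjusted p = 0.528), and Mycl had 5834 and 4526 (-0.37, edgeR adjusted p = 0.170).

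Gas5 varied little among the controls, and its rise was small. Its normalised counts were 2723, 2762, 2634 and 2649 in controls and 3214, 2857 and 3139 in knockouts. Each knockout was above each control. The means were 2692 ± 61.1 (SD, n = 4) and 3069.9 ± 188 (SD, n = 3), a log2 fold change of 0.19 (SE 0.0570, edgeR adjusted p = 0.0489). The call is at the edge of the threshold. Of the exon bases of Gas5, 17.8% are shared with 10 other annotated genes, on the same strand. The call held under 5 of 17 alternatives. The log2 ratio was 0.24 among libraries above 10% of counts on ribosomal RNA collecting genes. Below 10%, with 1 knockout library, it was 0.083. In the fit blocked by replicate number the log2 fold change was 0.18 and the edgeR adjusted p 0.122. Without control replicate 1, 2, 3 or 4 or knockout replicate 1 or 3 the edgeR adjusted p was 0.0709 to 0.139.

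Gas5 is known for a start made of pyrimidines, the 5′ terminal oligopyrimidine tract that ties translation to growth signals. RefSeq (GRCm38.p6) gives a promoter window with such a start at chr1:161034916-161035215, plus strand, with 250 bases before and 50 after the start site. Capitals mark the start tract CTTTC and hexamers that read, on either strand, A or C, then C, then any base but C, then CCC, which covers the GC and CACCC boxes that Krüppel-like factors bind.
Gas5 promoter: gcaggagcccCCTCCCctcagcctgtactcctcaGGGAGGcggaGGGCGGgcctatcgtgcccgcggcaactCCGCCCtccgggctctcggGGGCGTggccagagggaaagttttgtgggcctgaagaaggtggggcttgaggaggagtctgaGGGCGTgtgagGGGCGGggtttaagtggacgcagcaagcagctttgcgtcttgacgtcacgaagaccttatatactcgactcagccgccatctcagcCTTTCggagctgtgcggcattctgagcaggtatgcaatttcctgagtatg
The window held 7 such hexamers. A second RefSeq window of Gas5, at chr1:161034351-161034650, held 9 and has no pyrimidine start. Of the 32851 RefSeq promoters of the same length, 76.8% held at least 1, the median was 2, and 7.12% held 7 or more. A start of C followed by at least 4 pyrimidines was present in 2.505% of them, the Miat window included. Among the other members, the windows of Malat1, Miat and Snhg11 held 0, 2 and 2 hexamers. Windows of Neat1, Sox2ot, Pvt1 and Rmst were not analysed here. These are matches of letters and not measured binding.

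Zbtb37, which encodes a zinc finger protein, starts 317 bases from this Gas5 start on the other strand, and their promoter windows share 184 bases. It had 1242, 934, 846 and 972 in controls and 1459, 1237 and 1638 in knockouts, with a log2 fold change of 0.53 (edgeR adjusted p = 0.0383). Knockout replicate 2 lay within the controls. With the replicate block the edgeR adjusted p was 0.0634, and it was 0.0668 to 0.123 without control replicate 2, 3 or 4 or knockout replicate 1 or 3. On the other side of Gas5, Cenpl, a kinetochore gene 32.2 kb away, fell from 371 to 249.97 (log2 fold change -0.57, edgeR adjusted p = 0.0165). Klhl20, an adaptor of a ubiquitin ligase 49.8 kb away, fell from 1069.9 to 883 (-0.28, edgeR adjusted p = 0.0315). Without knockout replicate 2 the edgeR adjusted p of Cenpl was 0.0543. The call of Klhl20 was lost with the block (edgeR adjusted p = 0.0663) and without any 1 library other than control replicate 1 (0.0559 to 0.143), and with upper quartile factors, total counts only or no filter (0.0621 to 0.0916).

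Snhg11 was the least abundant member, with raw counts of 24 to 123 per library. Its normalised counts were 55.4, 60.3, 27.4 and 25.3 in controls and 66.8, 84.5 and 77.7 in knockouts. The knockouts were all above the controls, but the controls split into a higher and a lower pair. The means were 42.1 ± 18.3 (SD, n = 4) and 76.3 ± 8.95 (SD, n = 3), a log2 fold change of 0.87 (95% confidence interval 0.07 to 1.67) with an edgeR adjusted p of 0.110. It did not pass under any of the 17 alternatives (adjusted p 0.0555 to 0.253 over edgeR, DESeq2 and limma). Snhg11 is known as a transcript of neurons. The summed neuron markers were 1278 and 1468 CPM in the controls in which it was higher and 1119 and 980.3 in the others, and their part in its level was not tested.

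Of 15 other snoRNA host genes tested, 0 were lower and 2 higher (13.3%, beside 11.6% of all tested genes). Their median log2 fold change was 0.15. Snhg14, the long host at the imprinted Prader-Willi and Angelman locus, rose from 882 to 1418 (log2 fold change 0.69, edgeR adjusted p = 0.0233). Snhg17, which starts 14.1 kb from Snhg11 on the other strand, rose from 357 to 448 (0.33, edgeR adjusted p = 0.0310). With the replicate block the edgeR adjusted p was 0.0577 for Snhg14 and 0.09997 for Snhg17, which also lost its call with no filter on low counts (0.118). Without control replicate 4, knockout replicate 1 or knockout replicate 3 that of Snhg14 was 0.0530 to 0.0678, and without any 1 library that of Snhg17 was 0.0505 to 0.0951. Snhg8 had 631 and 744 (0.24, edgeR adjusted p = 0.118). Nonsense-mediated decay factors, the machinery that is known to degrade spliced Gas5, had 0 of 10 lower and 0 higher, with a median of -0.11. At an unadjusted p under 0.05 in edgeR 0 were lower and 1 higher, and DESeq2 and limma called 0.

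A further list held other long noncoding RNAs, of which 30 were tested. Of these 0 were lower and 13 higher (43.3%), beside 4.80% lower and 5.39% higher of the 2728 long noncoding genes tested. The median log2 fold change was 0.50, beside 0.18 over those 2728 genes. Oip5os1 (Cyrano), a conserved RNA that promotes decay of a microRNA, rose from 7287 to 9452 (0.38, edgeR adjusted p = 0.00478). Norad, which binds Pumilio proteins, had 3237 and 3076 (-0.07, edgeR adjusted p = 0.526), and Cerox1 had 3600.0 and 3787 (0.07, edgeR adjusted p = 0.410).

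Of the 13, 6 more were picked for mention after their values were seen, and they are not the 6 largest rises. Meg3, Rian and Mirg are transcribed from the maternal copy of one imprinted locus on chromosome 12. Rian had 1411, 1427, 1445 and 1364 in controls and 2876, 3214 and 2907 in knockouts (log2 fold change 1.09, SE 0.0592, edgeR adjusted p = 6.17e-05). Meg3 rose from 881 to 2398 (1.45, edgeR adjusted p = 0.00887) and Mirg from 30.6 to 70.9 (1.22, edgeR adjusted p = 0.0359). Peg13, an imprinted RNA of chromosome 15, rose from 2113 to 3431 (0.70, edgeR adjusted p = 0.00756). Dlx6os1, which lies in the Dlx5 and Dlx6 locus of interneurons, rose from 731 to 2649 (1.86, edgeR adjusted p = 0.0296). Sox1ot, a transcript that overlaps Sox1, rose from 246 to 756 (1.63, edgeR adjusted p = 0.0302). Each of these 6 genes had all knockouts above all controls. Calls were lost for Mirg with the replicate block (edgeR adjusted p = 0.0872) and without control replicate 2 or 4 or any 1 knockout library (0.0722 to 0.108). They were lost for Dlx6os1 without control replicate 3 or any 1 knockout library (0.0522 to 0.0923) and for Sox1ot without control replicate 4 or any 1 knockout library (0.0516 to 0.100). With no filter on low counts the edgeR adjusted p was 0.128 for Dlx6os1 and 0.105 for Sox1ot. Neuron markers, which had 12 of 17 tested genes higher and 0 lower, were higher in the same libraries, and their part in these values was not tested.

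**Figure D3:**
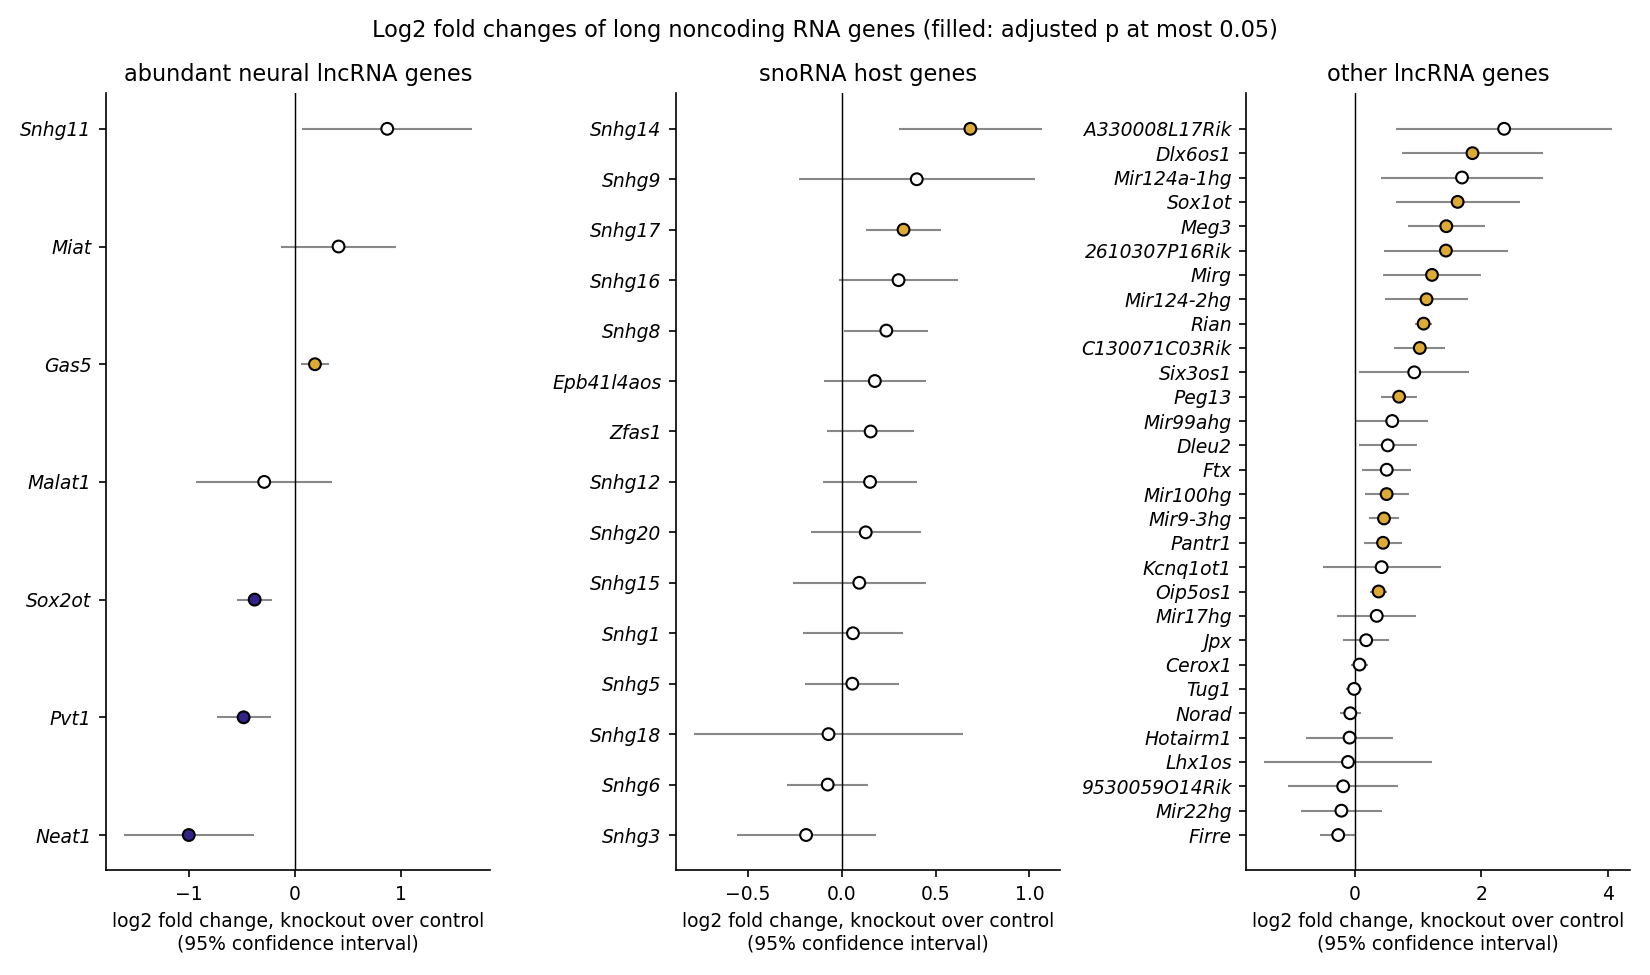
Log2 fold change of knockout over control with its 95% confidence interval (horizontal axes, each panel with its own scale) for the 7 members, 15 snoRNA host genes and 30 other long noncoding RNA genes; filled points passed the test. Neat1, Pvt1 and Sox2ot are the only filled points left of 0 in the 3 panels.

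Of the 42 tested genes within 100 kb of a member, 8 were lower (19.0%) and 3 higher (7.14%). All tested genes had 12.2% and 11.6%. The median log2 fold change of the 42 was -0.06. The largest change was beside Neat1. Cdc42ep2, an effector of the small GTPase CDC42 at 72.1 kb, had 1076, 1127, 1072 and 908 in controls and 149.9, 148 and 156 in knockouts. It was 6.90-fold lower in the knockout (log2 fold change -2.79, SE 0.104, edgeR adjusted p = 1.94e-05). Frmd8, which stabilises an activator of the shedding protease ADAM17, lies next to Neat1 at 4.22 kb. It had 11208, 12686, 14064 and 12946 in controls and 6904, 6559 and 5725 in knockouts (-0.99, SE 0.0975, edgeR adjusted p = 0.000785). Pola2, a subunit of the DNA polymerase that primes replication, fell from 685 to 502 (-0.45, edgeR adjusted p = 0.0207) and lost its call without knockout replicate 1 or 2 (0.0788 to 0.0846). The calls of Frmd8 and Cdc42ep2 held under all 17 alternatives. All 3 lie on the 5′ side of Neat1 and have its strand. Of the 5 tested genes near Miat, 0 passed in edgeR, DESeq2 or limma, and 0 had an unadjusted p under 0.05.

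**Figure D4:**
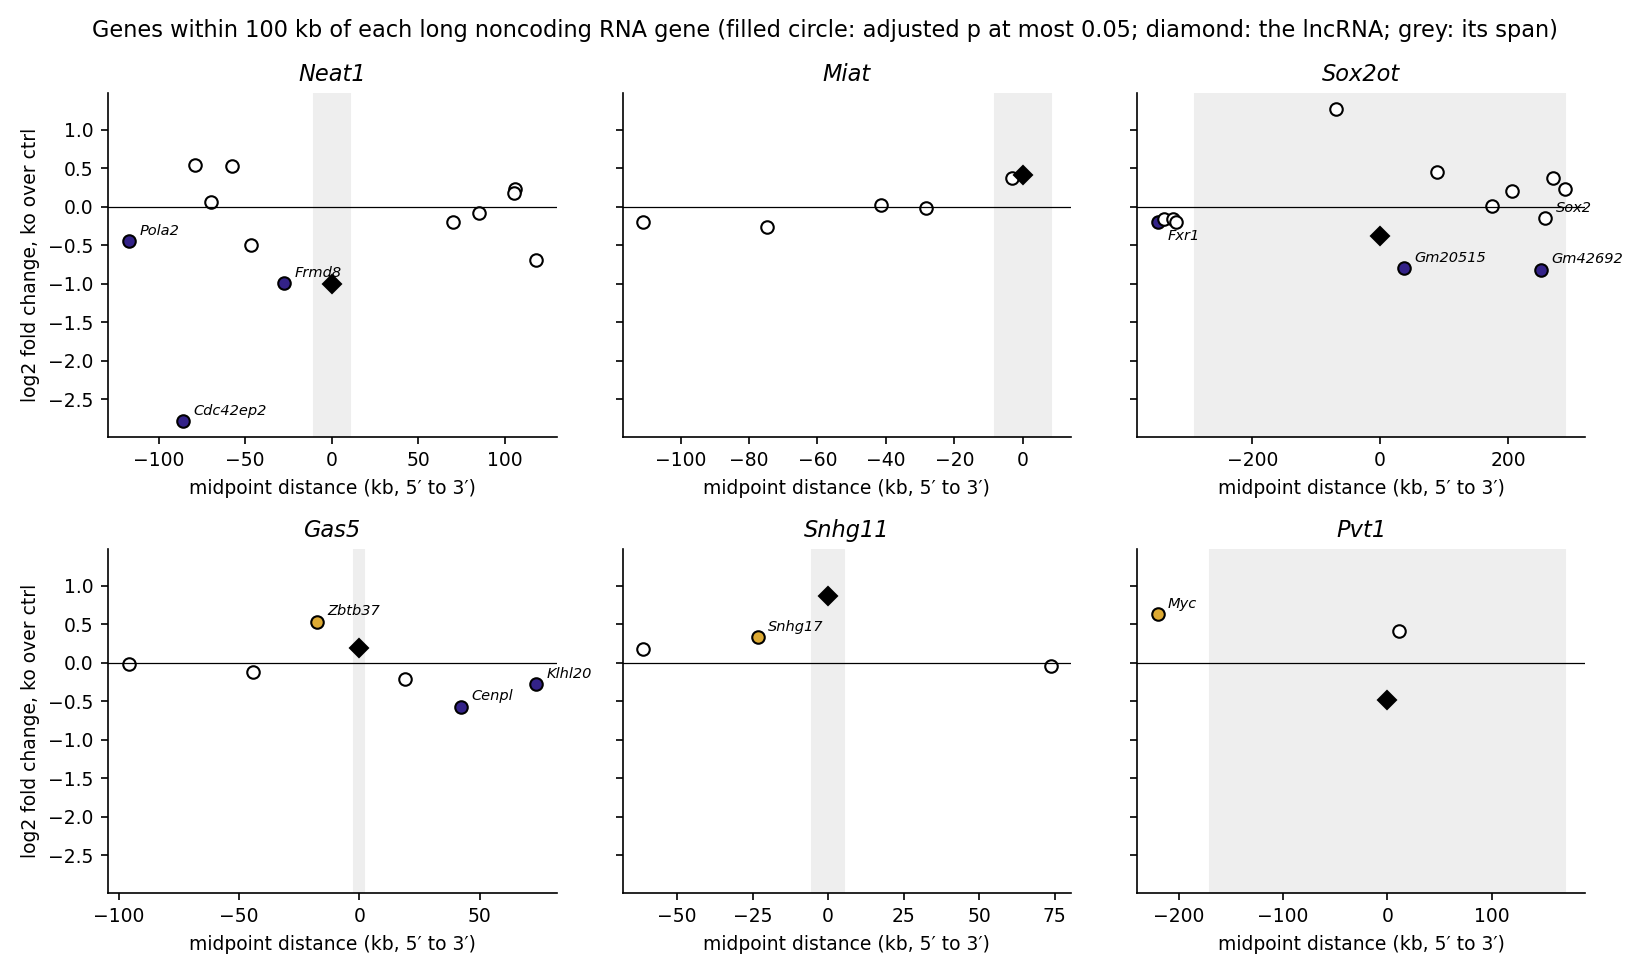
Log2 fold change of knockout over control (vertical axes) of tested genes within 100 kb of 6 members, against the distance between midpoints in kb along the member's direction (horizontal axes); diamonds are the member, grey its span and filled circles genes that passed the test. Neighbours of Malat1 are largely those of Neat1 and are not drawn again; Cdc42ep2 lies lowest of all, and Myc lies above and Pvt1 below 0.

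Levels between genes can be compared only per length of exon. In controls, normalised counts per kb were 23472 ± 5915 for Malat1, 716 ± 16.2 for Gas5, 565 ± 44.9 for Sox2ot, 184 ± 51.0 for Miat, 179 ± 59.7 for Neat1, 106 ± 7.46 for Pvt1 and 4.94 ± 2.15 for Snhg11 (SD, n = 4). Without control replicate 3 the level of Neat1 was 150 ± 21.4 (SD, n = 3). From Malat1 down to Snhg11 each gene was above the next in every control, except Miat and Neat1, whose libraries overlapped. In knockouts the per kb level of Miat was 188 to 303 and that of Neat1 73.1 to 109, with no overlap, while Neat1 overlapped Pvt1 at 67.3 to 86.7. Among all tested genes, the level per kb over the 7 libraries was at percentile 99.8 for Malat1, 83.7 for Gas5, 76.4 for Sox2ot, 57.4 for Miat, 49.1 for Neat1, 42.2 for Pvt1 and 7.86 for Snhg11, so not all members were abundant in these cells. Malat1 alone took 0.216% to 0.461% of the counts of a library. The Neat1 level is averaged over the 20771 bases of the long isoform, and a level of the short isoform alone was not computed.

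**Figure D5:**
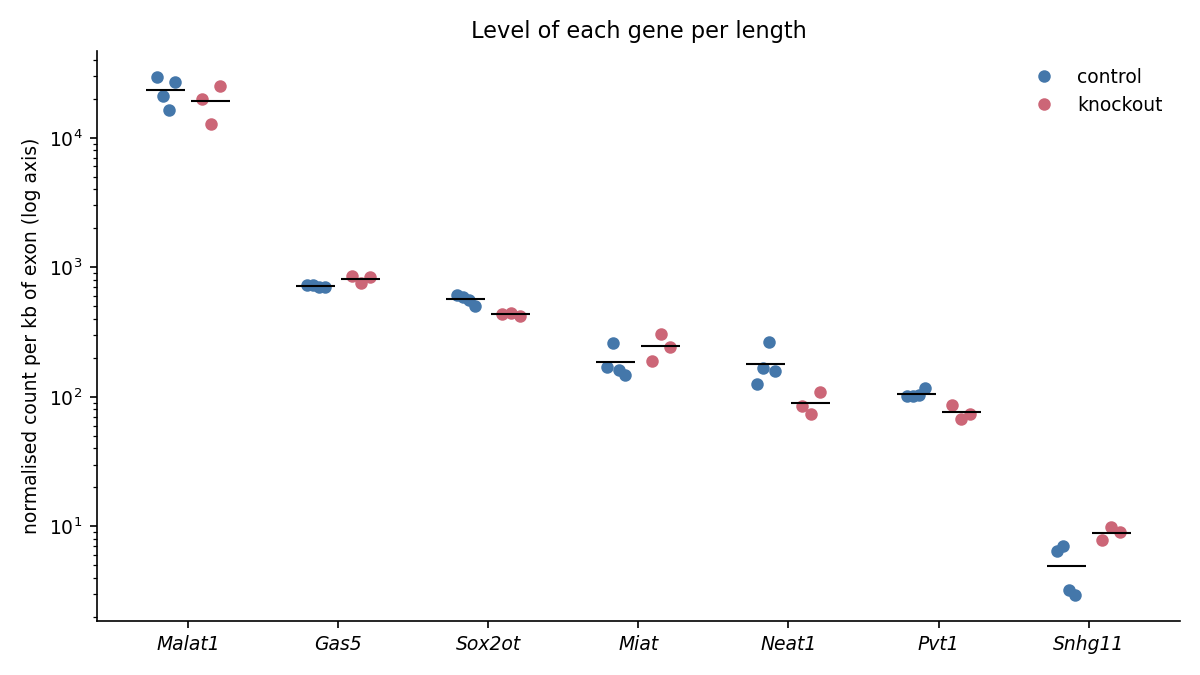
Normalised count per kb of exon (vertical log axis) of the 7 genes in order of their control mean; points are libraries and lines group means. Malat1 lies above all others, Miat and Neat1 overlap in controls but not in knockouts, and Snhg11 lies lowest.

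The spread between replicates differed among the members. The coefficient of variation over the 4 controls was 2.27% for Gas5, 7.04% for Pvt1, 7.95% for Sox2ot, 25.2% for Malat1, 27.7% for Miat, 33.4% for Neat1 and 43.5% for Snhg11, beside a median of 14.1% over all tested genes. For 5 of the 7 the value rested on 1 library. It was 14.2% for Neat1 and 16.7% for Malat1 without control replicate 3, 7.53% for Miat without control replicate 2, and 4.04% for Sox2ot and 1.23% for Pvt1 without control replicate 4. Over the 3 knockouts it was 2.24% for Sox2ot, 6.13% for Gas5, 11.7% for Snhg11, 12.965% for Pvt1, 20.7% for Neat1, 23.5% for Miat and 32.3% for Malat1, beside a median of 11.5%. Leaving out 1 knockout library lowered it by over 1.5 times for each of the 7, so no order is read from these values.

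As a description, the genes whose log2 CPM followed each member most closely over the 7 libraries were named. They were Bhlhe41 and F2rl1 for Neat1 (Pearson r = 0.995 and 0.990), Usp34 and Pdpk1 for Malat1 (0.988 and 0.984), and Zbtb16 and Top1 for Miat (0.986 and 0.980). For Sox2ot they were Miip and Phc1 (0.996 and 0.992), for Gas5 Mrpl30 and Mrps6 (0.9753 and 0.9747), for Snhg11 Rims2 and Cntnap4 (0.996 and 0.995), and for Pvt1 Vma21 and Ssr3 (0.998 and 0.998). Between 97 genes for Malat1 and 983 for Pvt1 had an r over 0.9. The 7 points share their genotype groups and ribosomal RNA shares.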

How the data were processed

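Poly(A) selection and strand are not given in the sources used here. The authors made RNA-seq libraries from RNA samples labelled as biological replicates. They trimmed reads with Trimmomatic 0.36, mapped them with STAR 2.5.2b to GRCm38 and counted unique exon hits with featureCounts of Subread 1.5.2. The deposited values are raw counts per gene, 24507471 to 59596479 per library. Symbols were found for 48970 of 49315 identifiers.

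Counts were tested in R 4.3.3 with edgeR 4.0.16: filterByExpr by group, TMM factors, a robust quasi-likelihood fit with group as the only term, two-sided, Benjamini-Hochberg over 18352 genes. The threshold for a call was an adjusted p of 0.05. Normalised counts are counts divided by the TMM-scaled library size, times its mean. Log2 CPM used a prior count of 2. Alternatives were other scalings, filters, DESeq2 1.42.0, limma 3.58.1, covariates and leaving out each library. The block by replicate number was one alternative. The deviations of same-numbered libraries from their group means had r of 0.113, 0.463 and 0.168. Libraries of unlike number had r of -0.529 to 0.197, so these values do not establish a pairing by number. The labels give only the number, and control replicate 4 has no partner. Blocked values stand beside the calls they change.

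The members, lists and tests were chosen with earlier results of these data known. By the naming rule, genes named are Klf13, the members, genes within 100 kb, up to the 4 highest of each list, all Miat-binding, SOX2-linked and Myc family genes, and the 2 most correlated genes per member (symbols beginning with Gm and a digit or ending in Rik left out); of these, values are printed for called neighbours, Sox2, Gm26953 and examples of each list. Outside the rule, Srsf6, Srsf7, Meg3, Rian, Mirg, Peg13, Dlx6os1, Sox1ot and Fam186a were named after their values were seen. Sequences come from GENCODE M21 and RefSeq. Plots were drawn with matplotlib 3.10.9.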

Additional observations from a re-analysis of the deposited data

Results flagged for a closer look

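Among the 47 genes looked at for a control library far from the other 3, 2 met the criterion. Chance gives about 1 in 20, so 2 of 47 is no excess over it. Pvt1 was highest in control replicate 4, at 819 normalised counts against 710.2 to 726 in the other controls. Norad was highest in control replicate 2, at 3525 against 3111 to 3163.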

How the results depend on the processing

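The 17 alternatives were run on the counts of members, listed genes and neighbours and on the fold changes of the members and 40 other named genes, and control levels were also computed from total counts. Levels, coefficients of variation and 1 ratio of Neat1 without 1 library were added after seeing the data. Marker sums, other ratios within ribosomal RNA classes, list medians and correlations had none. With 3 lower members, leaving out 1 library gave 1 to 3 (1 without knockout replicate 2). With 1 higher member, the count was 0 with upper quartile factors, without the ribosomal RNA collecting genes, with no filter on low counts, with limma voom, with the replicate block and when the ribosomal RNA share was a covariate, and 0 to 1 without 1 library. Neat1 missed the threshold with no filter (log2 fold change -1.0015, edgeR adjusted p = 0.0962) and with the share as a covariate (-0.93), and ranged from -1.17 to -0.75 without 1 library (-1.03 to -0.87 where the call was lost). Malat1 passed with the covariate (-0.60) and ranged from -0.52 to -0.061 without 1 library. Miat ranged from 0.23 to 0.62 without 1 library. Gas5 missed the threshold with upper quartile factors (0.23), without the ribosomal RNA collecting genes (0.17), with no filter (0.19), limma voom (0.18), the block (0.18) and the covariate (0.16), and ranged from 0.17 to 0.24 without 1 library. Pvt1 ranged from -0.57 to -0.40 without 1 library. Over the lists, 13 genes were lower and 46 higher. The block gave 22 lower, no filter gave 28 higher, and without 1 library 11 to 18 were lower and 19 to 42 higher (19 without knockout replicate 2). Beside the members, 3 to 6 were lower and 1 to 2 higher without 1 library, and 1 was higher with the block. Sox2 turned to 0.096 with the covariate and ranged from -0.43 to 0.034 without 1 library (0.034 without knockout replicate 3), and Sf1 to 0.0028 with the covariate. The block changed no call of another named gene than those given with it. The causes were not tested. With 3 and 4 libraries, changes below about the spread of replicates were not detectable, and counts under 100 as for Snhg11 limit precision.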
